A study of Zea mays with 28 samples.

Results

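The regions described here carried a peak of the maize protein ZmDDM1B in both wild-type (WT) libraries and no peak of ZmDDM1A or ZmAGO4 in WT. They are called ZmDDM1B-only regions. To find them, the peaks of 6 WT lists (ZmDDM1B, ZmDDM1A and ZmAGO4, 2 libraries each) were merged where they shared at least 1 bp, and a merged region was kept when both ZmDDM1B lists and no other list had a peak in it. The regions were thus chosen by the WT peak calls themselves, so WT widths, enrichments and gaps are described below and not tested. The rule left 2565 of 122155 merged regions, or 2.1%. They were 6.74% of the 38070 regions with a peak of both ZmDDM1B lists (95% interval 6.49 to 6.99%). The other 35505 carried a ZmDDM1A or ZmAGO4 peak as well.

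The chromatin came from developing embryos of the inbred line W22, 18 days after pollination (DAP). The groups, with 2 libraries each, were zmddm1b embryos precipitated with the ZmDDM1B antibody, zmddm1a embryos precipitated with the ZmDDM1A antibody, and WT embryos precipitated with the ZmDDM1B, the ZmDDM1A or the ZmAGO4 antibody. The labels name the mutants by the affected gene and give no allele, say that the submitting laboratory made the antibodies, and do not say whether replicates came from separate plants, so a p-value over libraries reflects only how far these libraries differ, possibly for technical reasons. The input, IgG, H3K9me2 and mRNA libraries of the series were not analysed here.

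DDM1 is a chromatin remodelling ATPase of the SNF2 family. In Arabidopsis it is needed to keep DNA methylation and silencing over transposons and other heterochromatin, where it gives methyltransferases access to DNA bound by nucleosomes. ARGONAUTE4 (AGO4) acts in RNA-directed DNA methylation, a pathway in which small RNAs guide methylation to matching sequence. Maize has a pair of DDM1 genes, and the lists compared here place the peaks of each DDM1 protein and of AGO4 in the embryo genome.

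A list holds what the peak caller reported, so a region outside the ZmDDM1A and ZmAGO4 lists is one where no peak of these was called, and not one shown to lack the protein. The WT libraries differed in depth. Recovered from the deposited values, the reads per kb of genome were 13.8 and 12.7 for ZmDDM1B, 17.9 and 17.8 for ZmDDM1A and 31.4 and 28.5 for ZmAGO4. The ZmDDM1A libraries were thus deeper than those of ZmDDM1B, yet their lists held fewer peaks. The part of depth in the missing ZmDDM1A and ZmAGO4 calls was not tested. The ZmDDM1B lists held 56570 and 53298 peaks, the ZmDDM1A lists 45957 and 45011, and the ZmAGO4 lists 99625 and 98086. The zmddm1b lists held 1870 and 766 peaks, and the zmddm1a lists 817 and 883. All positions are on the genome build B73 RefGen_v4, the assembly of another inbred line, counted from 1. Which genes or transposons the regions lie in, and their sequence, were not analysed here.

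The ZmDDM1B-only regions were short and single. Their median width was 375 bp, with the middle 50% between 306 and 489 bp and all of them between 214 and 1552 bp. Together they covered 1.08 Mb. Exactly 1 peak of each ZmDDM1B list made up 2538 of the 2565 regions, while 18 held 2 peaks of replicate 1 and 9 held 2 peaks of replicate 2. By comparison the median width was 552 bp for regions with ZmDDM1B and ZmDDM1A but no ZmAGO4 peak, 1334 bp for regions with ZmDDM1B and ZmAGO4 but no ZmDDM1A peak, and 1528 bp for regions with all 3 proteins. The width of a merged region grows with each list that has a peak in it, so the ZmDDM1B peaks themselves are the closer comparison. These had a median width of 292 and 307 bp in WT replicates 1 and 2 at ZmDDM1B-only regions, and of 447 and 458 bp at the other ZmDDM1B regions. By class it was 322 and 324 bp with ZmAGO4 but no ZmDDM1A peak, close to the ZmDDM1B-only regions. It was 399 and 410 bp with ZmDDM1A but no ZmAGO4 peak, and 469 and 481 bp with all 3 proteins.

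The ZmDDM1B signal at these regions was moderate in both libraries. The fold enrichment is the deposited ratio of reads to local background at the summit of a peak. Its median was 3.63 in WT replicate 1 and 3.66 in WT replicate 2, with ranges of 1.51 to 13.6 and 1.43 to 14.9. At the other ZmDDM1B regions the medians were 4.95 and 4.86. The log2 ratio of the medians was -0.43 ± 0.027 (SD, n = 2 libraries), which puts the ZmDDM1B-only regions lower in each library. The ratio differed by class. Against regions with ZmDDM1B and ZmDDM1A but no ZmAGO4 peak, whose medians were 4.21 and 4.18, the log2 ratio was -0.20 ± 0.015 (SD, n = 2). Against regions with all 3 proteins, at 5.22 and 5.11, it was -0.50 ± 0.032. Against regions with ZmDDM1B and ZmAGO4 but no ZmDDM1A peak, at 3.68 and 3.69, it was -0.014 ± 0.0045. The enrichment of ZmDDM1B-only regions thus lay next to that of regions shared with ZmAGO4 alone, and below that of regions shared with ZmDDM1A. These values come from the lists that chose the regions and are given as a description, with no test.

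**Figure D1:**
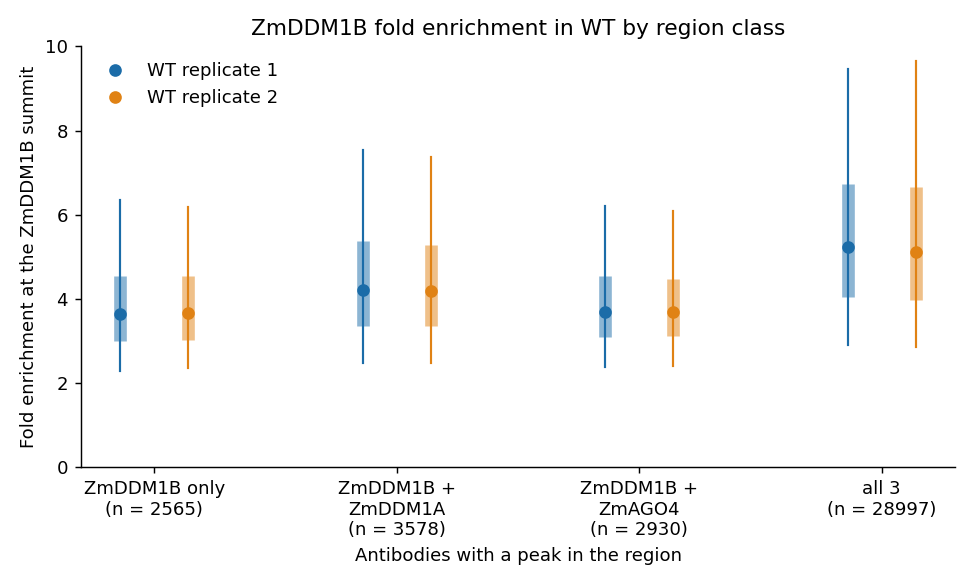
Fold enrichment of ZmDDM1B in WT (y axis, ratio at the summit, no unit) for the 4 classes of region with a peak of both ZmDDM1B lists; points are medians, thick bars the 25th to 75th percentile and thin lines the 5th to 95th percentile, for WT replicates 1 and 2. The medians of ZmDDM1B-only regions, 3.63 and 3.66, sit beside the 3.68 and 3.69 of regions shared with ZmAGO4 alone and below the 5.22 and 5.11 of regions with all 3 proteins.

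The reads behind a summit were few. The pileup, the number of reads that cover the summit, had a median of 31 in WT replicate 1 and 29 in WT replicate 2 at ZmDDM1B-only regions, against 53 and 46 at the other ZmDDM1B regions. The local background, given as a multiple of the lowest background of the library, had a median of 2.80 and 2.69 at ZmDDM1B-only regions and of 3.71 and 3.39 at the others. Both the reads and the background were thus lower at ZmDDM1B-only regions. The deposited −log10 q, a measure of how sure a call is, had medians of 7.85 and 7.36 at ZmDDM1B-only regions and 18.8 and 16.1 at the others. Among the others it was 8.48 and 7.65 with ZmAGO4 but no ZmDDM1A peak, and 13.5 and 12.0 with ZmDDM1A but no ZmAGO4 peak. Taking the smaller of the 2 libraries, 229 of the 2565 regions (8.93%) had a −log10 q under 3, and 966 (37.7%) had one under 5. The smaller fold was under 3 in 1027 of the regions and under 4 in 77.9% of them.

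The summits of the 2 libraries lay close together, within bounds that the rule set. The summits of WT replicates 1 and 2 lay a median of 47 bp apart, and 74.5% of the pairs lay within 100 bp. At the other ZmDDM1B regions the median distance was 38 bp. Peaks had to be merged to share a region, and these had median widths of 292 and 307 bp. Short distances were thus largely set by the rule and are a description. The folds of the 2 libraries were within 1.5 times of each other at 79.1% of the ZmDDM1B-only regions, with the higher value in replicate 1 at 1253 regions and in replicate 2 at 1312. Across the 2565 regions the correlation of log2 fold between the libraries was 0.41. The regions were chosen for a call in both libraries, which cuts off low values, and they are not independent replicates, so this r is a description. The membership itself depended on having both ZmDDM1B lists. With only WT replicate 2 of ZmDDM1B 7130 regions met the rule, and with only WT replicate 1 8355 regions did. A total of 9938 regions had a peak of 1 ZmDDM1B list and of no other WT list.

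**Figure D2:**
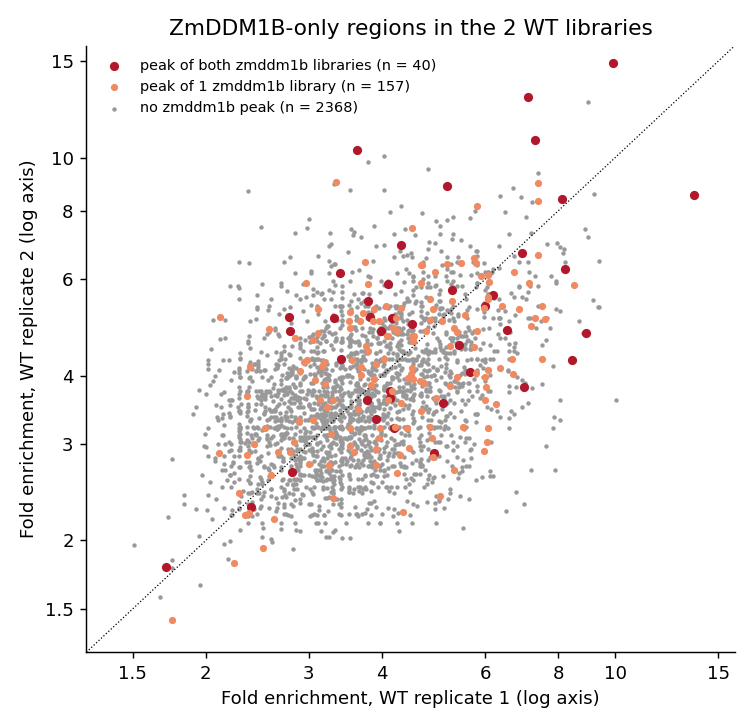
Fold enrichment of the 2565 ZmDDM1B-only regions in WT replicate 1 (x axis) and WT replicate 2 (y axis), both as ratios on log axes; each point is 1 region, coloured by whether both, 1 or neither zmddm1b library had a peak there, and the dotted line marks equal values. The 40 regions called in both zmddm1b libraries spread over the whole range and include the point with the highest value of the smaller fold, at 9.93 and 14.9.

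A part of the ZmDDM1B-only regions was also called with the ZmDDM1B antibody in zmddm1b embryos. A peak of either zmddm1b library met 197 of the 2565 regions, or 7.68% (95% interval 6.68 to 8.78%), against 965 of the 35505 other ZmDDM1B regions, or 2.72% (2.55 to 2.89%). Over all regions with both ZmDDM1B lists the share was 3.05%. Intervals were computed by the exact Clopper-Pearson method and take in no error but that of counting, and regions that lie near each other are not independent. The zmddm1b lists took no part in choosing the regions.

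The order was the same in each zmddm1b library. Replicate 1 met 165 ZmDDM1B-only regions, or 6.43%, against 2.61% of the other ZmDDM1B regions and 2.87% of all. Replicate 2 met 72, or 2.81%, against 0.363% of the others and 0.528% of all. Both libraries met 40 of the ZmDDM1B-only regions (1.56%) and 92 of the others (0.259%), and 0.347% of all. The difference in share, ZmDDM1B-only minus other regions, was 3.82 percentage points in replicate 1 and 2.44 in replicate 2, and 4.96 points for a peak of either. Leaving out any 1 chromosome kept the last value between 4.52 and 5.59 points. The 2 libraries differed in the size of the share, and the call rested on replicate 1 for most regions, since without it the share of ZmDDM1B-only regions was 2.81% in place of 7.68%.

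Among the other classes the zmddm1b share was low where ZmDDM1B was accompanied by 1 other protein. It was 0.699% of regions with ZmDDM1A but no ZmAGO4 peak (25 of 3578) and 0.751% of regions with ZmAGO4 but no ZmDDM1A peak (22 of 2930). It was 3.17% of regions with all 3 proteins (918 of 28997). So ZmDDM1B-only regions had the highest share of these 4 classes, in each zmddm1b library. Their median WT enrichment lay just below that of regions with ZmAGO4 but no ZmDDM1A peak (log2 ratio -0.014) and further below the other 2 classes. The 95% intervals of the ZmDDM1B-only share did not overlap those of the other 3 classes, for either library alone or for a peak of either.

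The zmddm1a lists, made with the other antibody, hardly touched the ZmDDM1B-only regions. Replicate 1 met 0 of 2565, which allows a share of up to 0.117%, and replicate 2 met 1 (0.0390%). Over all regions with both ZmDDM1B lists the shares were 1.77% and 1.37%, and for either library 2.46%. These lists met 936 of the other ZmDDM1B regions (2.64%), of which 896 carried all 3 proteins in WT, and 0 of the 2930 regions with ZmAGO4 but no ZmDDM1A peak, which allows up to 0.102%. The rule barred regions with a WT peak of ZmDDM1A or ZmAGO4, and 99.3% of the peaks of zmddm1a replicate 1 and 98.8% of those of replicate 2 met such a WT peak. The counts of 0 and 1 were therefore largely set by the rule and say little about the regions. Of the zmddm1b peaks, 53.4% in replicate 1 and 24.9% in replicate 2 met a WT peak of ZmDDM1A or ZmAGO4.

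Per library, zmddm1b replicates 1 and 2 met 165 and 72 ZmDDM1B-only regions, and zmddm1a replicates 1 and 2 met 0 and 1. Both zmddm1b libraries were above both zmddm1a libraries. The means were 118.5 ± 65.8 regions in zmddm1b and 0.5 ± 0.71 regions in zmddm1a (SD, n = 2 each), a difference of 118. Since the rule largely set the zmddm1a counts, this difference is a description and a test of it would be void. Antibody and genotype also differ together here and cannot be told apart. As a share of each list, ZmDDM1B-only regions held 8.82% of the 1870 peaks of zmddm1b replicate 1 and 9.40% of the 766 peaks of replicate 2, against 0% of the 817 and 0.113% of the 883 peaks of the zmddm1a lists. Of the 236 regions shared by both zmddm1b lists, 40 (16.9%, 12.4 to 22.4%) were ZmDDM1B-only regions.

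**Figure D3:**
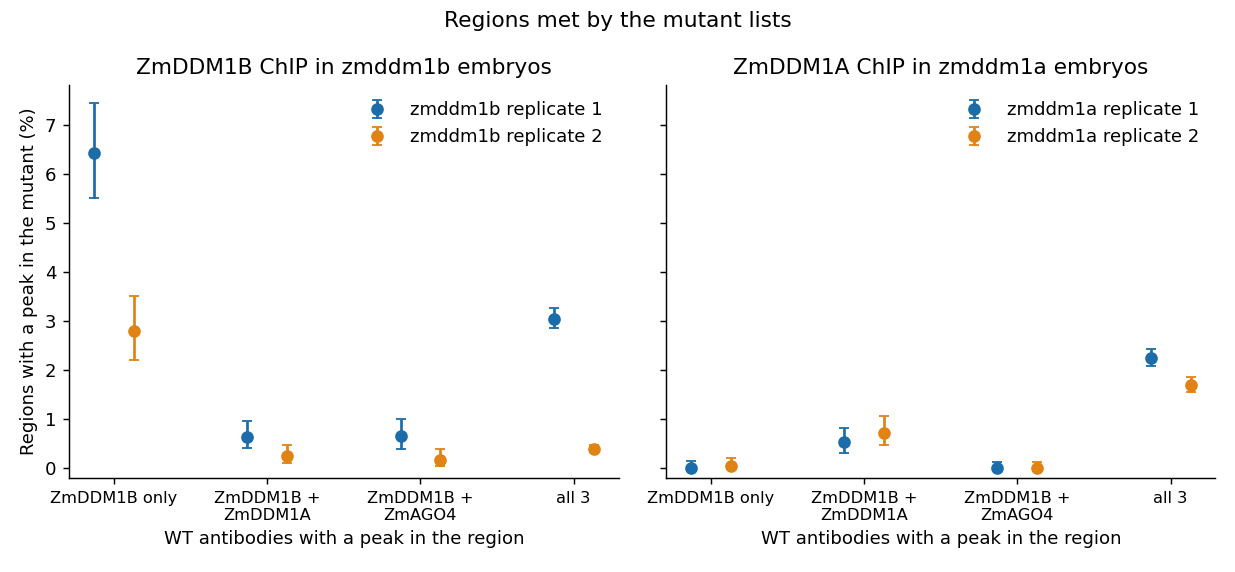
Share of regions with a peak in a mutant (y axis, percent) for the 4 classes of ZmDDM1B region (x axis), with the ZmDDM1B antibody in zmddm1b (left) and the ZmDDM1A antibody in zmddm1a (right); points are single libraries and bars exact 95% intervals of the count. ZmDDM1B-only regions reach 6.43% and 2.81% in zmddm1b and 0% and 0.0390% in zmddm1a.

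The regions called in both zmddm1b libraries had much the same fold enrichment in mutant and WT, which their choice largely set. They were picked for a call in mutant and WT, so low folds were cut off in both. The 2368 of 2565 regions without a zmddm1b peak have no zmddm1b fold to compare. At these 40 regions the median fold was 5.01 and 5.10 in zmddm1b replicates 1 and 2, against 4.41 and 5.04 in WT replicates 1 and 2. Folds of different libraries are scaled to their own backgrounds, so these values stand side by side and are not a measure of retained binding. Within the zmddm1b lists, the peaks at ZmDDM1B-only regions had a median fold of 4.90 in replicate 1 and 4.93 in replicate 2, against 4.25 and 4.69 for the peaks elsewhere. The peaks that met ZmDDM1B-only regions were thus not the weakest of the mutant lists.

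The strongest ZmDDM1B-only region of all, by the smaller of its 2 WT folds, was one of them. It lay at chr3:40837351-40837678, 328 bp wide, and had a fold of 11.2 and 6.25 in zmddm1b replicates 1 and 2, against 9.93 and 14.9 in WT replicates 1 and 2. The nearest ZmDDM1A peak was 25225 bp away and the nearest ZmAGO4 peak 28428 bp. Of the 10 ZmDDM1B-only regions with the highest smaller fold, 6 had a zmddm1b peak and 4 had one in both libraries. The shares over all ZmDDM1B-only regions were 7.68% and 1.56%. A zmddm1b peak was more frequent at strong regions of either kind. Above a smaller fold of 6 it met 26.7% of 45 ZmDDM1B-only regions and 9.92% of 6138 other ZmDDM1B regions.

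Among the 10 strongest of the 40, both zmddm1b folds lay below both WT folds at 4 regions, and the mutant and WT values overlapped at the other 6. Over all 40 regions both zmddm1b folds lay below both WT folds at 8 and above both at 6, and the values overlapped at 26. The region at chr6:14282073-14282356 had a lower fold in zmddm1b, at 5.11 and 6.39, than in WT, at 13.6 and 8.56. At chr10:35062298-35062606 the fold was 5.52 and 5.94 in zmddm1b and 8.10 and 8.41 in WT, and this summit had 118 and 122 reads in WT, far above the median of 31 and 29. At chr5:154967635-154967970 the folds were 7.34 and 5.24 in zmddm1b and 7.30 and 10.8 in WT. The libraries of mutant and WT overlapped at this region but not at the preceding pair. At chr4:109394854-109395132 the folds were 10.8 and 5.84 in zmddm1b and 7.09 and 12.9 in WT, with no ZmDDM1A peak for 755309 bp and no ZmAGO4 peak for 97125 bp. The region at chr4:61215144-61215406 had folds of 4.89 and 7.66 in zmddm1b and 8.22 and 6.25 in WT, and was likewise isolated, 92407 bp from the nearest ZmAGO4 or ZmDDM1A peak. At chr2:193761513-193761923, 10300 bp from the nearest peak of another antibody, the folds were 5.70 and 6.48 in zmddm1b and 6.93 and 6.71 in WT. The remaining 3 of the 10 strongest lay at chr1:145245259-145245569, chr3:24376403-24376769 and chr2:453596-454267. Their folds ran between 4.76 and 6.90 in zmddm1b and between 5.27 and 6.18 in WT. Both zmddm1b folds were below both WT folds at the last of these, and the values overlapped at the first pair.

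The strongest ZmDDM1B-only regions with no peak in any mutant list had WT folds of the same order. At chr7:56610927-56611190 the fold was 8.98 and 12.6 in WT replicates 1 and 2, on 33 and 46 reads, and the nearest other peak, one of ZmDDM1A, was 26654 bp away. At chr5:163262620-163262927 it was 9.20 and 8.59, with a ZmAGO4 peak at 25567 bp. At chr5:30818634-30818869 it was 8.88 and 7.42, and at chr1:16097560-16097854 it was 7.39 and 9.36. These 4 had a background close to the lowest of the library, at 1.00 to 1.26 times that floor, so that their folds rested on 27 to 46 reads. The region at chr2:150346256-150346496 had folds of 7.21 and 8.30 and lay 110055 bp from the nearest peak of another antibody. By contrast the region at chr5:209710036-209710441, with folds of 7.66 and 6.96, had a ZmAGO4 peak 286 bp away and a ZmDDM1A peak 392 bp away. High enrichment was therefore found both far from and beside the other proteins. The other 4 lay at chr8:3592339-3592855, chr2:53265718-53265967, chr2:230983155-230983780 and chr10:74091095-74091434, with folds between 6.97 and 8.99.

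Typical and weak members looked different. The 3 regions nearest the median of the smaller fold, 3.21, lay at chr1:295427277-295427513, chr2:115210863-115211096 and chr2:220217284-220217592. They had 20 to 26 reads at the summit, and their WT folds were 3.21 in replicate 2 and 3.25, 6.60 and 3.40 in replicate 1. The second shows how far the libraries could differ at one region. The 3 weakest folds came with a high background. At chr3:109383028-109383431 the WT folds were 1.75 and 1.43 on 213 and 199 reads, over a background 43.6 and 50.9 times the floor, and zmddm1b replicate 1 had a peak there with a fold of 1.59. At chr2:157592313-157592673 the WT folds were 1.51 and 1.96 over a background of 49.2 and 41.7 times the floor, and this was the region met by zmddm1a replicate 2, with a fold of 1.82. At chr4:193374593-193375342 the WT folds were 1.67 and 1.58 over 16.8 and 18.0 times the floor, with no mutant peak. All 3 had far more reads than the median region, and yet the lowest folds.

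The widest ZmDDM1B-only regions joined peaks whose summits lay apart. They lay at chr3:179391055-179392606 (1552 bp), chr7:154090426-154091805 (1380 bp) and chr8:162302858-162304232 (1375 bp). The summits of the 2 libraries lay 337, 1147 and 579 bp apart in them, against the median of 47 bp. The WT folds were 4.28 and 4.60, 5.15 and 3.86, and 3.97 and 2.83. All 3 had a ZmDDM1A or ZmAGO4 peak within 319 to 1496 bp and no mutant peak.

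The ZmDDM1B-only regions often lay beside the peaks they did not overlap. A ZmDDM1A or ZmAGO4 peak of WT lay within 1 kb of 1290 of the 2565 regions (50.3%), and within 10 kb of 82.7%. For ZmAGO4 alone the share within 1 kb was 45.5% and the median gap 1237 bp. For ZmDDM1A alone they were 28.3% and 4042 bp. A ZmAGO4 peak and no ZmDDM1A peak lay within 1 kb of 565 regions, a ZmDDM1A and no ZmAGO4 peak within 1 kb of 124, and both within 1 kb of 601. The ZmAGO4 lists held more and wider peaks, so a shorter gap to them carries no measure of preference. Of regions with ZmDDM1B and ZmDDM1A but no ZmAGO4 peak, 48.8% had a ZmAGO4 peak within 1 kb, close to the 45.5% of ZmDDM1B-only regions. Of regions with ZmDDM1B and ZmAGO4 but no ZmDDM1A peak, 16.1% had a ZmDDM1A peak within 1 kb.

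The line drawn by the rule ran through this close neighbourhood. Just inside it, the region at chr6:91576795-91577515 touched a ZmAGO4 peak with no shared base, and the one at chr6:171582329-171582639 touched a ZmDDM1A peak. The region at chr1:208945553-208945856 was 1 bp from a ZmDDM1A peak. Their WT folds were 3.20 and 3.27, 2.45 and 4.204, and 3.00 and 2.33. Just outside it, the regions at chr1:227579432-227580603 and chr1:263854772-263856333 shared 2 bp with a ZmAGO4 peak, and the one at chr1:104121634-104123190 shared 3 bp. Their ZmDDM1B folds were 3.23 and 3.86, 2.35 and 4.48, and 3.18 and 3.33. The values on the 2 sides of the line overlapped. Asking for no ZmDDM1A or ZmAGO4 peak within 1 kb would leave 1275 regions.

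At the other end, 665 regions had no ZmDDM1A or ZmAGO4 peak within 5 kb. The farthest lay at chr6:52587037-52587287, with a gap of 174950 bp and WT folds of 5.39 and 3.88, at chr4:113401814-113402138, with a gap of 165595 bp and folds of 4.00 and 4.01, and at chr1:136387035-136387423, with a gap of 159180 bp. The last of these was called in both zmddm1b libraries, with folds of 2.75 and 4.75 in zmddm1b and 2.78 and 5.13 in WT. The values of mutant and WT overlapped there.

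The share of ZmDDM1B-only regions with a zmddm1b peak grew with the distance to the other proteins. It was 13 of 1290 (1.01%, 95% interval 0.538 to 1.72%) within 1 kb of a ZmDDM1A or ZmAGO4 peak, 40 of 610 (6.56%, 4.73 to 8.82%) at 1 to 5 kb, and 144 of 665 (21.7%, 18.58 to 24.98%) beyond 5 kb. Each zmddm1b library showed this order. The shares were 0.775%, 4.75% and 18.9% in replicate 1, and 0.388%, 2.95% and 7.37% in replicate 2. Both libraries called 2, 7 and 31 of these regions. The 3 bins were set after the distances had been seen.

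In finer steps the share was 0 of 144 regions up to 100 bp, which allows up to 2.08%, then 0.802% (6 of 748) above 100 and up to 500 bp, 1.76% (7 of 398) up to 1000 bp and 6.56% up to 5000 bp. It was 19.5% (43 of 220) up to 10000 bp, 21.9% (44 of 201) up to 20000 bp and 23.4% (57 of 244) above 20000 bp. The last 3 steps lay within the intervals of each other, so most of the increase fell between 1 and 10 kb.

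**Figure D4:**
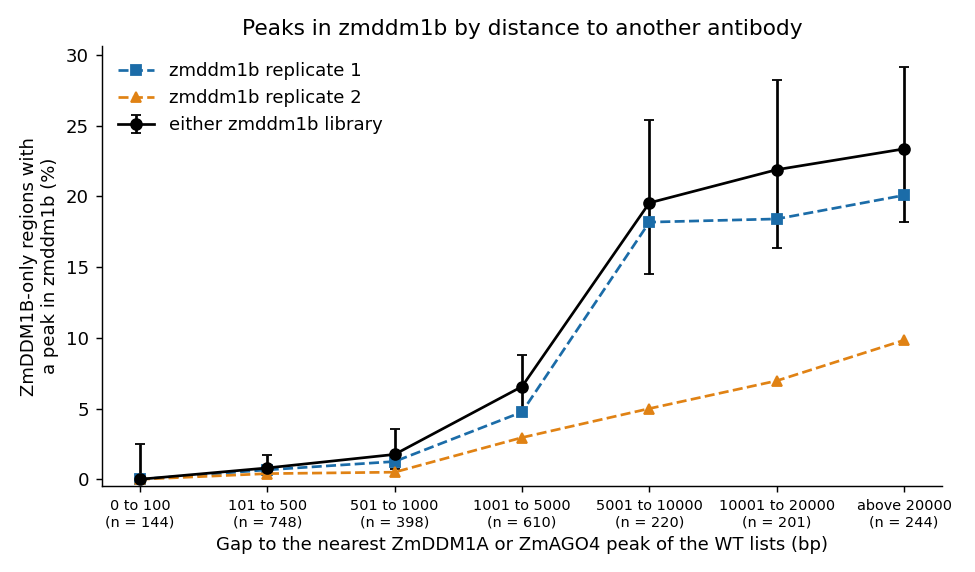
Share of ZmDDM1B-only regions with a peak in zmddm1b (y axis, percent) by the gap in bp to the nearest ZmDDM1A or ZmAGO4 peak of WT (x axis, 7 bins with the number of regions); the solid line is a peak of either library with exact 95% intervals, and the dashed lines are zmddm1b replicates 1 and 2. The share is 0% in the nearest bin and 23.4% in the farthest, and both libraries are highest in the farthest bin.

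The enrichment of the regions moved with the gap too, though by less. Regions within 1 kb of another protein had median WT folds of 3.41 and 3.51, and those beyond 5 kb 4.19 and 4.07. Their median backgrounds were 3.11 and 2.71 times the floor within 1 kb, and 2.18 and 2.04 times beyond 5 kb. Their summit reads were alike, at 32 and 30 within 1 kb and 29 and 27 beyond 5 kb. The zmddm1b share by gap was also taken at levels of WT fold. Among regions with a smaller WT fold up to 3, the zmddm1b share was 17.6% (33 of 188) beyond 5 kb, against 0.502% (3 of 598) within 1 kb. For folds of 3 to 4 it was 22.6% beyond 5 kb, against 1.17% within 1 kb, and above 4 it was 23.9%, against 2.26%. The isolated regions were the higher at each of these levels. Background differed with the gap as well, as did the median width, at 410 bp within 1 kb and 319 bp beyond 5 kb. The cause of the order was not tested.

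The zmddm1b share was also set beside that of the other ZmDDM1B regions by isolation. Those regions hold a ZmDDM1A or ZmAGO4 peak themselves, so only their gap to the next region could be taken. Taking the gap to any other merged WT region, of whatever antibody, the zmddm1b share of ZmDDM1B-only regions was 1.78% within 1 kb, 10.3% at 1 to 5 kb and 20.8% (114 of 547) beyond 5 kb. For the other ZmDDM1B regions it was 2.80%, 2.75% and 2.42% (152 of 6292) in the same steps. The shares of regions with ZmDDM1A but no ZmAGO4 peak were 0.518%, 0.914% and 1.299% (5 of 385), and those of regions with ZmAGO4 but no ZmDDM1A peak were 0.728%, 0% and 1.72% (11 of 641). Those of regions with all 3 proteins were 3.35%, 3.20% and 2.58% (136 of 5266). So the 547 most isolated ZmDDM1B-only regions stood at 20.8% where regions of the other classes with such a gap stood at 1.299 to 2.58%. Distance from the other proteins and class cannot be told apart here. Within 1 kb of another region the ZmDDM1B-only share was not above that of the other ZmDDM1B regions.

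The zmddm1b share also went with WT enrichment, and at every level the ZmDDM1B-only regions were the higher. With a smaller WT fold up to 2.5 it was 4.31% of ZmDDM1B-only regions and 0.992% of the others. From 3 to 3.5 it was 5.47% and 0.315%, from 4 to 5 it was 11.03% and 1.35%, and above 6 it was 26.7% (12 of 45) and 9.92% (609 of 6138). The last interval of the ZmDDM1B-only regions, 14.6 to 41.9%, is wide but did not include the value of the others. It overlapped that of regions with ZmAGO4 but no ZmDDM1A peak above 6, at 13.3% (4 of 30, 3.76 to 30.7%). Near other antibodies the share was low, at 2.26% of ZmDDM1B-only regions above a fold of 4 and within 1 kb.

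The 197 regions called in zmddm1b, set against the 2368 that were not, had a median gap of 10172 bp to the nearest ZmDDM1A or ZmAGO4 peak, against 829 bp. Their WT folds had medians of 4.31 and 4.29, against 3.59 and 3.64, and their median −log10 q was 10.9 and 9.33, against 7.63 and 7.26. Their summit reads differed little, at 33 and 31, against 31 and 29. Their median background was 2.49 and 2.38 times the floor, against 2.80 and 2.70. They were also narrower, at a median of 344 bp against 379 bp.

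The regions called in embryos mutant for the antibody's target gene thus lay at more isolated sites. Of all zmddm1b peaks, 76.5% in replicate 1 and 48.8% in replicate 2 met a peak of any WT list. The part of where the zmddm1b lists call peaks in this isolation was not tested. The 197 regions also had a lower median background, as given above. The 40 regions called in both zmddm1b libraries had medians of 2.75 and 2.71 times the floor, next to those of the regions without a peak. The zmddm1b share was 13.5% (20 of 148) above 5 times the floor, 5.37% at 3 to 5 times and 13.9% (36 of 259) up to 1.5 times. Background and isolation were not tested against each other. The part of binding to something other than ZmDDM1B in the WT signal of these regions was not tested, and the IgG and input libraries were not used here. Without the 197 regions 2368 remained, and the log2 ratio of their median fold to that of other ZmDDM1B regions without a mutant peak was -0.42.

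Along the chromosomes the ZmDDM1B-only regions were densest toward the ends. The outer 40% of the chromosomes, 20% at each end, held 57.8% of them (95% interval 55.9 to 59.7%), against 54.7% of the other ZmDDM1B regions (54.2 to 55.2%). The middle 20% held 10.7% of them, against 12.2% of the others. The outer share was higher for ZmDDM1B-only regions on 9 of 10 chromosomes. The exception was chromosome 5, with 60.1% against 60.3%, and the largest gap was on chromosome 10, with 64.5% against 55.8%. Regions with ZmDDM1A but no ZmAGO4 peak had an outer share of 57.1%, and those with ZmAGO4 but no ZmDDM1A peak one of 48.3%. The length of a chromosome was taken as the end of its last listed peak.

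The regions near the other proteins lay farther out than the isolated ones. The outer share was 60.5% (57.8 to 63.2%) for ZmDDM1B-only regions within 1 kb of a ZmDDM1A or ZmAGO4 peak and 48.7% (44.9 to 52.6%) for those beyond 5 kb. It was 47.7% for the 197 regions with a zmddm1b peak, against 58.7% for those without one.

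**Figure D5:**
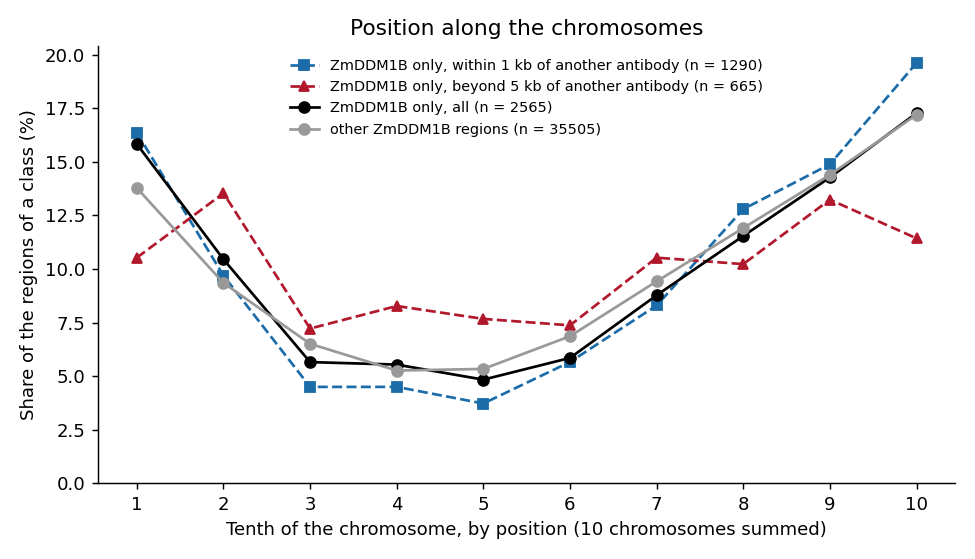
Share of the regions of a class in each 10% step of chromosome length, from one end to the other (x axis, 10 chromosomes summed; y axis, percent of the class); lines are all ZmDDM1B-only regions, those within 1 kb and beyond 5 kb of a ZmDDM1A or ZmAGO4 peak, and the other ZmDDM1B regions. ZmDDM1B-only regions near another protein are highest in the first and last step, at 16.4% and 19.6%, where those beyond 5 kb stand at 10.5% and 11.4%.

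Every chromosome carried ZmDDM1B-only regions, in rough proportion to its length. They ran between 9.80 per 10 Mb on chromosome 4 and 13.5 per 10 Mb on chromosome 2. As a share of the ZmDDM1B regions of a chromosome they ran between 6.16% on chromosome 1 and 8.18% on chromosome 10. The intervals of these extremes were 5.57 to 6.79% and 7.12 to 9.33%. They take in counting error only, and the extremes were picked from 10 chromosomes. Whether chromosomes differ was therefore not tested. The share with a zmddm1b peak was above that of the other ZmDDM1B regions on 9 of 10 chromosomes. It was highest on chromosome 9, at 12.8% (26 of 203) against 2.74%. On chromosome 6 it was lower, at 1.33% (3 of 225) against 2.87%.

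The regions were mostly scattered singly. The median gap to the nearest other ZmDDM1B-only region was 213009 bp, and 10.0% had another within 10 kb. Cut into windows of 100 kb, 2080 windows held 1 region, 204 held 2, 23 held 3 and 2 held 4. The 2 fullest windows were chr1:182600001-182700000 and chr3:20800001-20900000, each with 4 ZmDDM1B-only regions beside 1 other ZmDDM1B region and no zmddm1b peak in any of the 4. Their smaller folds ran between 2.34 and 3.39 in the first and between 2.62 and 3.97 in the second, which is near the median of all members. The window chr1:5800001-5900000 held 3 ZmDDM1B-only regions beside 4 other ZmDDM1B regions, and 1 of the 3 had a zmddm1b peak.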

How the data were processed

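Each of the 10 ChIP libraries (5 groups) had a peak list of its own. The submitters' processing notes name MACS2 2.1.2, Bowtie2, Trim Galore and Picard, along with RNA-seq tools, with no role or order, and the build B73 RefGen_v4. The caller's settings and control samples are not stated in the sources. The authors deposited per peak a score, a fold (ratio) at the summit, and −log10 p-values and q-values. The score was not used.

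Peaks were merged with Python 3.11.15, numpy 2.4.6 and pandas 2.3.3, with plots by matplotlib 3.10.9. A region's fold in a library is the highest of its peaks. Gaps run from edge to edge. Reads and background at summits were recovered from the deposited fold, taken as (pileup + 1) / (background + 1), and the Poisson p-value. A whole pileup within 0.001 matched at least 99.998% of WT summits. Reads per kb rest on the lowest recurring background and the smallest peak width. The merging, gap and pileup steps were tested on simulated data. Intervals and an exact permutation test of libraries, void here, used SciPy 1.17.1. The limit for a count of 0 is 3 counts. It lies below the upper end of the exact interval drawn in the figures, as with 2.08% against 2.53% for 0 of 144 regions.

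The regions, bins and tests were chosen with earlier results of these data known, and the bins of gap, fold and background after the values were seen. Named regions are the 10 strongest without a mutant peak, the 10 strongest with peaks of both zmddm1b lists, the 3 nearest the median fold, the 3 weakest, widest, most isolated, just inside and just outside the rule, and the 3 fullest windows of 100 kb. Alternatives were other thresholds, overlap rules, neighbour distances and leaving out each library. The labels do not say that libraries with the same replicate number were paired.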

Additional observations from a re-analysis of the deposited data

How the results depend on the processing

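The count of ZmDDM1B-only regions, 2565, was 1599 with −log10 q of at least 5 in the ZmDDM1B lists, 566 with a fold of at least 4 there, 1673 and 1275 with no other peak within 500 bp or 1 kb, and 12503 with either ZmDDM1B list. With each WT library left out it ran between 2692 and 8355. The zmddm1b share, 7.68%, was 6.63% with −log10 q of at least 5 in zmddm1b, 1.56% for both libraries, 2.81 to 6.43% with 1 library left out and 10.0% with −log10 q of at least 5 in the ZmDDM1B lists. Beyond 1 kb and 5 kb of other antibodies it was 14.4% and 21.7%. The zmddm1a share, 0.0390%, ran between 0% and 0.0390% with 1 library left out. The difference in zmddm1b share to other ZmDDM1B regions, 4.96 points, was 1.3003 for both libraries, 2.44 to 3.82 with 1 left out and 7.03 with −log10 q of at least 5 in the ZmDDM1B lists. It kept its sign in all 8 alternatives. The log2 ratio of −0.43 was −1.19 for −log10 q and −0.36 at intermediate width. The outer 20% held 33.1% of the regions, and the outer 40% held 48.7% of those beyond 5 kb. A ZmDDM1A or ZmAGO4 peak lay within 500 bp, 5 kb and 10 kb of 34.8%, 74.1% and 82.7%. The median width was 358 bp with −log10 q of at least 5. The test of the difference of 118 regions between zmddm1b and zmddm1a was void, since the rule largely set the zmddm1a counts. Its exact permutation p was 0.33 and, with the replicate number as a replicate block, its exact sign-flip p was 0.5, each the smallest the design can give. The difference ran between 71.5 and 164.5 with 1 library left out. None of the alternatives turned a sign. The causes of the changes were not tested. All alternatives of the difference in zmddm1b share, and those on background, isolation and WT threshold for the zmddm1b share, were added after seeing the data. The ZmDDM1B calls rest on a median of 30 reads at a summit, and what depth does to them was not tested. Where a list lacks a peak the protein may still be present.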

Other observations

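Regions with peaks of both ZmDDM1A lists and of no ZmDDM1B or ZmAGO4 list numbered 866. A zmddm1a peak, called with the same antibody in its own mutant, met 139 of them (16.1%, 95% interval 13.7 to 18.7%), 58 in replicate 1 and 127 in replicate 2, and a zmddm1b peak met 11 (1.27%). A zmddm1a peak met 1.12% of regions with ZmDDM1B and ZmDDM1A but no ZmAGO4 peak and 3.09% of regions with all 3 proteins. The ZmDDM1A-only regions were thus met by the list of their own antibody and mutant, as 7.68% of ZmDDM1B-only regions were by the zmddm1b lists.

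Of the 9938 regions with a peak of 1 ZmDDM1B list and no other WT list, 339 (3.41%, 3.06 to 3.79%) had a zmddm1b peak. The share was 2.88% where the peak was of WT replicate 1 and 4.09% where it was of WT replicate 2, so regions called in both WT libraries stood above regions called in 1.

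By local background the zmddm1b share of ZmDDM1B-only regions was high at both ends. It was 13.9% up to 1.5 times the floor, 12.1% at 1.5 to 2, 5.89% at 2 to 3, 5.37% at 3 to 5 and 13.5% (20 of 148) above 5. For other ZmDDM1B regions it was 0.640%, 0.263%, 0.716%, 2.66% and 8.30% in the same steps, highest where the background was highest. The causes were not tested.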
